A study of Drosophila melanogaster with 18 samples.

Results

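The 8 genes described here encode the superoxide dismutases, their copper chaperone, catalase and the core of the thioredoxin system of Drosophila melanogaster: Sod1, Sod2, Sod3, Ccs, Cat, Trxr1, Trxr2 and Trx-2. They were chosen by name, and all 8 matched a FlyBase gene row, out of 23932 features in the count table (Trx-2 is annotated as Trx2). Superoxide dismutases turn superoxide, a by-product of respiration, into hydrogen peroxide in separate compartments. Sod1 is the cytosolic copper/zinc enzyme, Sod2 the manganese enzyme of the mitochondrial matrix, and Sod3 the extracellular copper/zinc enzyme. Ccs delivers copper to Sod1, and catalase breaks down hydrogen peroxide in peroxisomes. Flies lack glutathione reductase, so thioredoxins reduced by thioredoxin reductase also keep glutathione reduced. Trxr1 encodes cytosolic and mitochondrial forms of that reductase, which counts per gene cannot separate, and Trx-2 is a thioredoxin of the cytosol.

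Libraries of whole-fly RNA came from w1118, a laboratory strain with white eyes, kept on food with 10% sugar and yeast, at 24 °C per the labels (the study's methods give a slightly higher temperature). There were 18 libraries in 3 groups of 6: flies at day 0 of adulthood, flies at day 2 given vehicle, and flies at day 2 given 1 µM cycloheximide (CHX), an inhibitor of protein translation (PT), in the food. The day 0 and the vehicle flies carry the same treatment label, control, and no group received an oxidant according to the labels. The study describes RNAseq of flies given paraquat, whereas the labels of these libraries name neither paraquat nor day 10, so the groups are as labeled. The labels give no sex for a library and do not say whether libraries came from separate cultures, so p-values measure the spread between libraries, which may be technical. Replicates 1 to 3 of each group carry hyphenated library names and replicates 4 to 6 unhyphenated ones. What this name series marks is not given, and it was a term in every fit unless stated.

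The vehicle libraries stood apart in composition. Library totals ran from 21495631 to 38519240 counts, and the TMM scaling factors (trimmed mean of M-values, which correct for a few genes taking up a library) were 0.892 to 0.916 at day 0, 1.24 to 1.31 with vehicle and 0.823 to 0.929 with CHX. Genes of the mitochondrial genome held 16.9% to 20% of counts at day 0, 5.7% to 8.12% with vehicle and 15.6% to 21.8% with CHX. In vehicle flies against day 0, all 8 muscle markers were lower, with a summed level of 59700 to 70200 CPM (counts relative to the TMM-scaled library size) at day 0, 900 to 1540 with vehicle and 63200 to 74600 with CHX. All 5 neuronal markers were lower too (317 to 580, 89.3 to 177 and 387 to 559 CPM, in the same order). All 9 eggshell genes were higher (144 to 291, 4630 to 14000 and 1.86 to 44.6 CPM), as were all 6 germline and ovary markers that matched a row (153 to 290, 835 to 1010 and 136 to 220 CPM). No muscle, neuronal, eggshell or germline marker was at 0 in a whole group. Other marker lists were less uniform in vehicle flies against day 0. Of 5 eye markers 4 were lower, and of 7 fat body markers 3 were higher and 3 lower. Of 5 gut markers 3 were higher and 2 lower. Over all features tested, 41.8% were higher and 41.1% lower at an adjusted p under 0.05 (edgeR). The 8 male tract and testis markers summed to 25.9 to 79.2, 17.9 to 37.6 and 46.7 to 84.7 CPM, nearly all of it from bol (means of 59.1, 25.9 and 62.3 CPM). Of the other 7, SP and Acp95EF had 0 counts in all 18 libraries, though all exon bases of Acp95EF are shared with Spase22-23 on the opposite strand, and betaTub85D summed to 167 counts over the day 0 libraries and Acp36DE to 33 over the vehicle libraries. The part of these shifts in the results below was not tested, and in whole flies fewer cells of a type and less RNA per cell cannot be told apart.

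The 3 superoxide dismutases took 3 different courses in vehicle flies. Sod2 (2R, 16772785 to 16773915 in the Ensembl annotation of BDGP6) was the transcript with the clearest loss. Its level was 216 ± 19.4 CPM at day 0 (mean ± SD, n = 6 here and below), with a lowest, median and highest library of 195, 211 and 245. With vehicle it was 86.2 ± 9.79 CPM (69.6, 86.5 and 99.6), and with CHX 235 ± 36.8 CPM (187, 246 and 271). Every vehicle library thus lay below every other library for the transcript of this mitochondrial enzyme, while the day 0 and CHX libraries overlapped. The share of all features whose groups separate in this way was not computed, here and below, so separation is not shown to be particular to a gene. Sod3 (2R, 11380347 to 11384114) had the opposite pattern. It was at 124 ± 6.66 CPM at day 0 (114, 126 and 131), 264 ± 39.7 with vehicle (220, 258 and 326) and 127 ± 10.6 with CHX (118, 124 and 141). The lowest vehicle library for the transcript of this extracellular enzyme was above the highest of both other groups. Sod1 (3L, 11112281 to 11113740) moved least of the 3: 366 ± 37 CPM at day 0 (311, 372 and 410), 301 ± 29 with vehicle (254, 300 and 344) and 398 ± 80.5 with CHX (291, 422 and 483). Its ranges overlapped between all groups.

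The copper chaperone and catalase followed no common course. Ccs (2R, 10121486 to 10122574) was the least abundant of the 7 members with more than a few counts, at 15 ± 1.88 CPM at day 0 (13.3, 14.4 and 18.1), 17.8 ± 1.75 with vehicle (14.8, 17.7 and 19.9) and 16.2 ± 1.61 with CHX (13.5, 16.5 and 17.7), and its groups overlapped. Cat (3L, 18822604 to 18828188) was at 536 ± 29.7 CPM at day 0 (512, 529 and 594), 401 ± 77.7 with vehicle (301, 425 and 479) and 555 ± 29.7 with CHX (522, 544 and 603). All vehicle libraries lay below all others for Cat, and vehicle replicates 2 and 3, at 301 and 308 CPM, were furthest below.

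In the thioredoxin system the reductase transcript changed and the thioredoxin transcript did not pass the test. Trxr1 (X, 8242528 to 8248033) was at 291 ± 14.6 CPM at day 0 (271, 289 and 308), 473 ± 79.2 with vehicle (396, 455 and 597) and 294 ± 28.1 with CHX (259, 296 and 330), with all vehicle libraries above all others. Of its 3147 exon bases 435, or 13.8%, are shared with sni on the opposite strand, and the sources used here do not state if strand entered the counting. sni was at 18.8, 26.8 and 19.8 CPM in day 0, vehicle and CHX flies, a lower level than Trxr1 in each group. Its log2 fold changes had the same directions as those of Trxr1. They were 0.51 (SE 0.09) for vehicle against day 0 and -0.44 (SE 0.09) for CHX against vehicle. The part of the shared bases in the Trxr1 values was not tested. Trx-2 (2L, 9613166 to 9616404) was level, at 215 ± 23.4 CPM at day 0 (182, 219 and 238), 217 ± 19.9 with vehicle (190, 222 and 245) and 221 ± 37.9 with CHX (170, 233 and 265). Trxr2 (3L, 22550226 to 22552019), a second reductase gene, was hardly detected. Its counts summed to 2 over the 6 day 0 libraries (95% exact Poisson interval 0.242 to 7.22), 8 with vehicle (3.45 to 15.8) and 2 with CHX (0.242 to 7.22), out of 190967015, 150691997 and 177721752 counts. The intervals cover counting error only. Trxr2 did not pass the filter on low counts and was not tested, and its exons share no base with another gene.

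**Figure D1:**
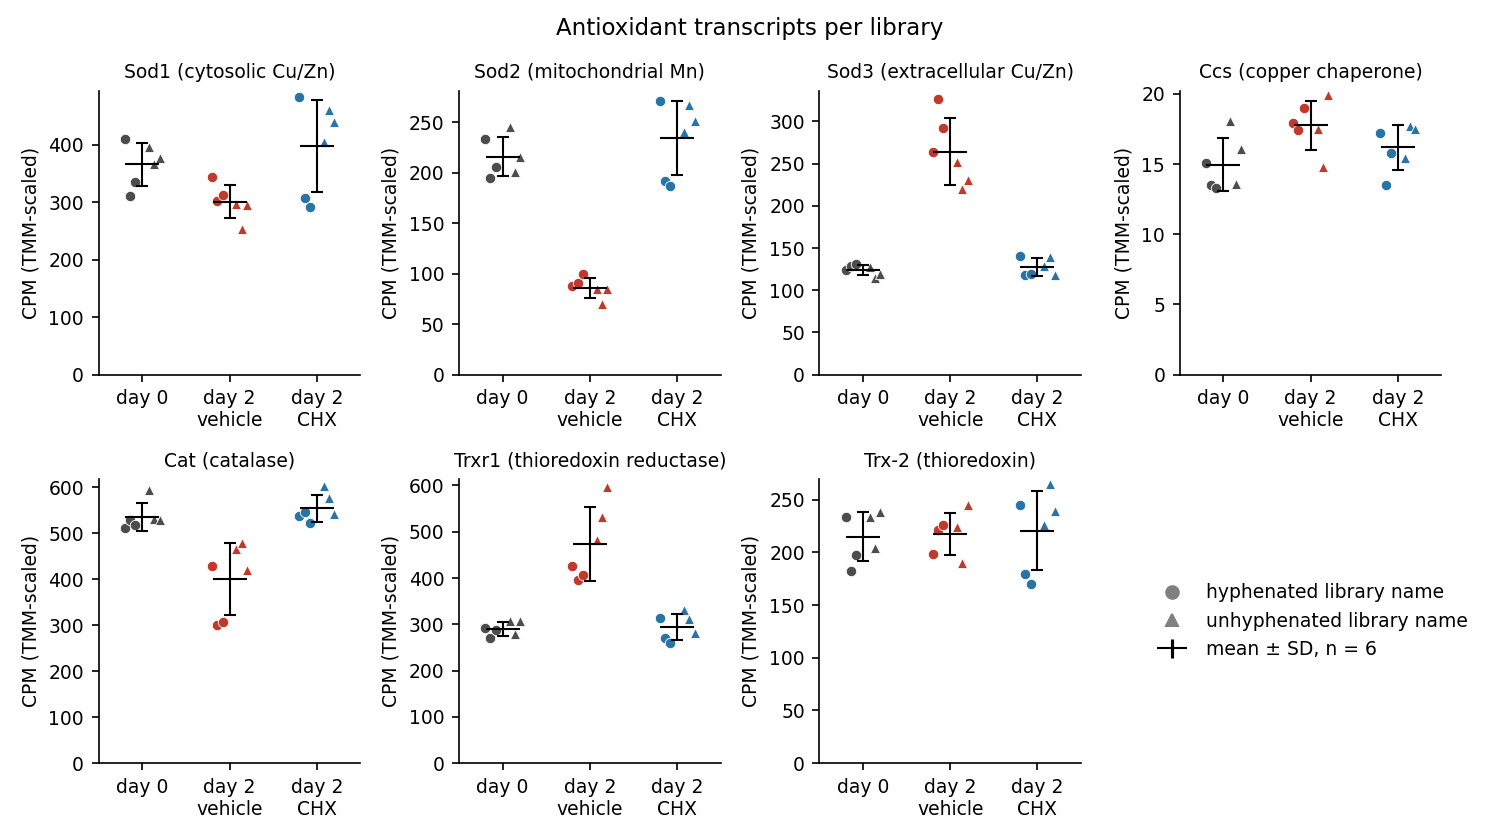
Level of the 7 members with more than a few counts in each library, in TMM-scaled CPM on axes that start at 0, by group. Circles are libraries with hyphenated names, triangles unhyphenated ones, and lines are the mean ± SD of 6 libraries. Vehicle libraries lie apart for Sod2 (at most 99.6 CPM), Sod3 (at least 220), Cat (at most 479) and Trxr1 (at least 396), without a share over all features to set this against. In CHX flies Sod1, Sod2 and Trx-2 show the same pair of low libraries, replicates 2 and 3. Day 0 replicates 2 and 3 are also the lowest of day 0 for Sod1 (311 and 336 CPM) and Trx-2 (182 and 198 CPM), but not for Sod2.

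Levels of different genes were set side by side per kilobase of exon. At day 0 the order was Sod1 (498 CPM per kb), Cat (269), Sod2 (213), Trx-2 (158), Trxr1 (92.3), Sod3 (61.4) and Ccs (15.3), and no neighbors in this order overlapped between libraries. In vehicle flies Sod2 fell to place 6 of 8: the order was Sod1 (409 CPM per kb), Cat (201), Trx-2 (160), Trxr1 (150), Sod3 (131), Sod2 (84.9) and Ccs (18.2). The ranges of Cat and Trx-2, of Trx-2 and Trxr1, and of Trxr1 and Sod3 overlapped there. In CHX flies the order was that of day 0, from Sod1 at 541 CPM per kb to Ccs at 16.6, with overlap between Cat (278) and Sod2 (231) and between Sod2 and Trx-2 (163). Trxr2 was last in each group.

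As shares of all superoxide dismutase transcripts (counts per exon base of the 3 genes), which do not depend on library scaling, Sod1 was steady while Sod2 and Sod3 exchanged places. Sod1 made up 64.4 ± 1.59% at day 0, 65.5 ± 2.25% with vehicle and 64.5 ± 1.75% with CHX. Sod2 made up 27.6 ± 0.894% at day 0 (26.3% to 28.7%), 13.6 ± 0.716% with vehicle (12.6% to 14.7%) and 27.8 ± 0.707% with CHX (26.9% to 28.8%). Sod3 made up 8.01 ± 0.922% at day 0 (7.22% to 9.4%), 20.9 ± 1.98% with vehicle (19.1% to 24.4%) and 7.7 ± 1.08% with CHX (6.44% to 9.22%). In vehicle flies Sod3 was thus the more abundant transcript of the pair in every library, and in day 0 and CHX flies Sod2. These libraries measure RNA and not the enzymes. These shares are descriptions, and the ratios that underlie them are tested below.

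**Figure D2:**
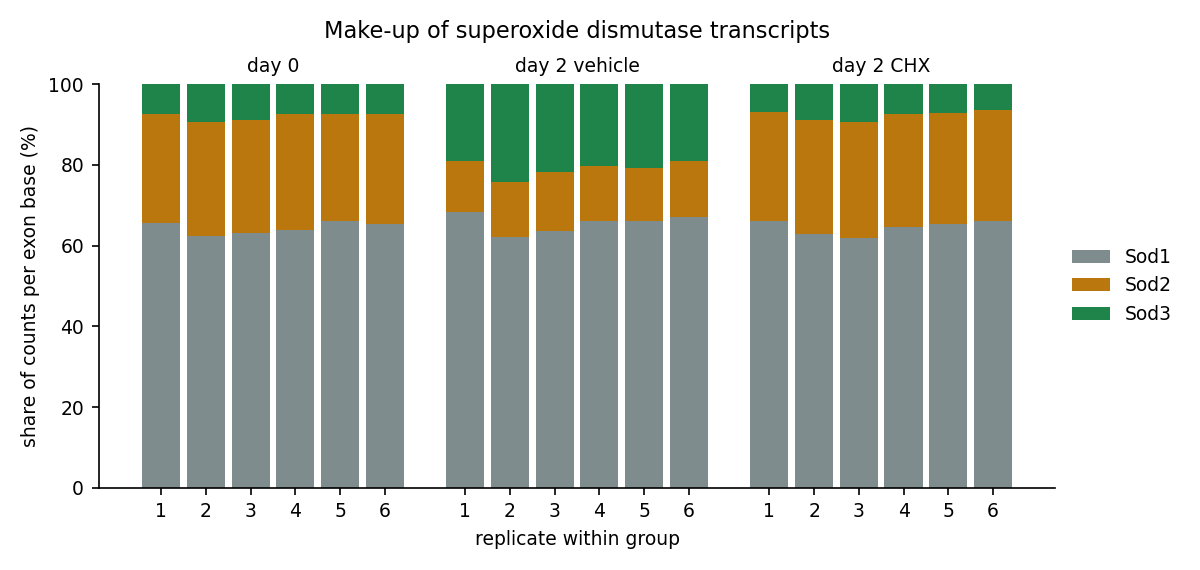
Share of Sod1, Sod2 and Sod3 in all superoxide dismutase transcripts of each library, in percent of counts per exon base, with 1 bar per library. The Sod1 part stays between 61.9% and 68.3% in the 18 libraries, and in all 6 vehicle libraries the Sod3 part (at least 19.1%) is larger than the Sod2 part (at most 14.7%).

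The comparison of vehicle flies with day 0 asked how these transcripts change over early-adulthood. Sod3, Trxr1 and Ccs rose and Sod2, Cat and Sod1 fell, which is 3 higher and 3 lower among the 7 members tested, and Trx-2 did not pass. Across all 11051 features tested, 41.8% were called higher and 41.1% lower, so the members' count is near the background and only the direction and size of each gene are of interest. The members' median log2 fold change was 0.02, beside -0.004 over all features. Calls are at an adjusted p under 0.05 in the quasi-likelihood test of edgeR, adjusted by Benjamini-Hochberg over all features, and errors are standard errors (SE).

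Sod2 was 2.5-fold lower in vehicle flies, at -1.32 on the log2 scale (SE 0.11, edgeR adjusted p = 1.14e-09). Sod3 was 2.12-fold higher, at 1.09 (SE 0.09, adjusted p = 6.39e-10), and Trxr1 was 1.62-fold higher, at 0.69 (SE 0.08, adjusted p = 2.48e-07). These 3 genes were called in the same direction under every scaling and with each library left out. Cat fell by 0.43 (SE 0.09, adjusted p = 0.00027). The change of Sod1 was smaller, at -0.28 (SE 0.12, adjusted p = 0.0383), and so was that of Ccs, at 0.25 (SE 0.10, adjusted p = 0.0246). Both calls depended on which libraries entered. That of Sod1 was lost without day 0 replicate 1, 4 or 6 or vehicle replicate 2, 4, 5 or 6 (adjusted p between 0.0522 and 0.1), and that of Ccs without day 0 replicate 2, 3 or 5 or vehicle replicate 6 (between 0.0554 and 0.062). Trx-2 was at 0.02 (SE 0.10, adjusted p = 0.865), with a 95% interval of -0.20 to 0.23.

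The comparison of CHX with vehicle at day 2 asked whether these changes took place when PT was inhibited. Sod2, Cat and Sod1 were higher with CHX and Sod3 and Trxr1 lower, so that 3 members were called higher and 2 lower, against 42.0% and 41.3% of all features. Sod2 was 2.72-fold higher, at a log2 fold change of 1.44 (SE 0.11, edgeR adjusted p = 3.09e-10). Sod3 was 2.06-fold lower, at -1.04 (SE 0.09, adjusted p = 1.04e-09), and Trxr1 1.6-fold lower, at -0.68 (SE 0.08, adjusted p = 3.19e-07). For these 3 genes and for Cat, at 0.48 (SE 0.09, adjusted p = 8.64e-05), the groups did not overlap. How common this is over all features was not computed. Sod1 was at 0.40 (SE 0.12, adjusted p = 0.00498) with overlapping groups, and the call was lost in the hyphenated series alone (0.17, adjusted p = 0.422). CHX replicates 2 and 3 (308 and 291 CPM) lay within the vehicle range and the other 4 CHX libraries (404 to 483 CPM) above it. Those replicates also had the lowest shares of mitochondrial-genome counts among CHX libraries (16.6% and 15.6%). For Sod1 the day 0 libraries of the same numbers were the lowest of day 0 too (311 and 336 CPM). The lowest mitochondrial share at day 0 was in replicate 5, however (16.9%, with Sod1 at 366 CPM). A link between that share and Sod1 was not tested. Ccs was at -0.14 (adjusted p = 0.196, 95% interval -0.34 to 0.07) and Trx-2 at 0.02 (adjusted p = 0.888, interval -0.20 to 0.23). The members' median was 0.02, as over all features. The vehicle libraries enter this comparison and the one before, so their mirrored values are not independent.

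CHX flies against day 0 flies showed no member past the threshold. The log2 fold changes ran from 0.02 for Trxr1 to 0.12 for Sod1 and Sod2, with a median of 0.05 beside 0.002 for all features. By edgeR 0 of 7 members were called, 0 reached an unadjusted p of 0.05 (the lowest was 0.27), and DESeq2 and limma-voom called 0 as well. Of all features 0% were called higher and 0.552% lower, namely 61 of 11051. The 95% intervals of the members lay between -0.18 and 0.37, so a change as large as that of Sod2, Sod3 or Trxr1 in vehicle flies lay outside for each of the 7. The upper bounds of Sod1 (0.37), Sod2 (0.34) and Ccs (0.32) were beyond the size of the Sod1 and Ccs changes in vehicle flies. That no call was made does not show that levels were equal.

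Ratios of counts between members within a library depend on no scaling at all. They were compared by exact two-sided permutation tests of 6 against 6 libraries, where 0.00216 is the smallest p possible, and adjusted over 18 tests. The Sod2/Sod1 ratio was 0.591 at day 0 (geometric mean, 0.55 to 0.629), 0.286 with vehicle (0.255 to 0.32) and 0.594 with CHX (0.562 to 0.643). The log2 difference was -1.05 for vehicle against day 0 and 1.05 for CHX against vehicle (adjusted exact permutation p = 0.00433 for each). The Sod3/Sod1 ratio was 0.34 at day 0 (0.301 to 0.414), 0.874 with vehicle (0.768 to 1.08) and 0.325 with CHX (0.267 to 0.409), with log2 differences of 1.36 and -1.43 (adjusted exact permutation p = 0.00433 for each). Sod2 transcripts were therefore lower against those of Sod1, and Sod3 transcripts higher, in all 6 vehicle libraries than in any other library. The ratios use the same counts as the fold changes above, so they are not separate evidence. How many pairs among all features would differ in this way was not computed.

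The chaperone transcript also rose against that of its client enzyme. Ccs/Sod1 was at 0.0408, 0.059 and 0.0412 in day 0, vehicle and CHX flies, a log2 difference of 0.53 without overlap (adjusted exact permutation p = 0.00433) and, for CHX against vehicle, of -0.52 with overlap (0.00779). Counts of catalase against those of the mitochondrial dismutase, Cat/Sod2, were at 2.48, 4.59 and 2.39, with differences of 0.89 and -0.95 (adjusted exact permutation p = 0.00433 for each). Cat/Sod1, at 1.47, 1.31 and 1.42, differed by -0.16 and 0.11 (adjusted exact permutation p = 0.574 and 0.751) with wide spread in vehicle flies, from 0.987 to 1.88. In the thioredoxin system the day 0, vehicle and CHX libraries had Trx-2/Trxr1 ratios of 0.737, 0.463 and 0.744, with differences of -0.67 and 0.69 (adjusted exact permutation p = 0.00433 for each). For CHX against day 0 the 6 ratios differed by -0.06 to 0.01 on the log2 scale (adjusted exact permutation p of 0.751 or more). No test of a ratio changed sides when a library was left out.

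**Figure D3:**
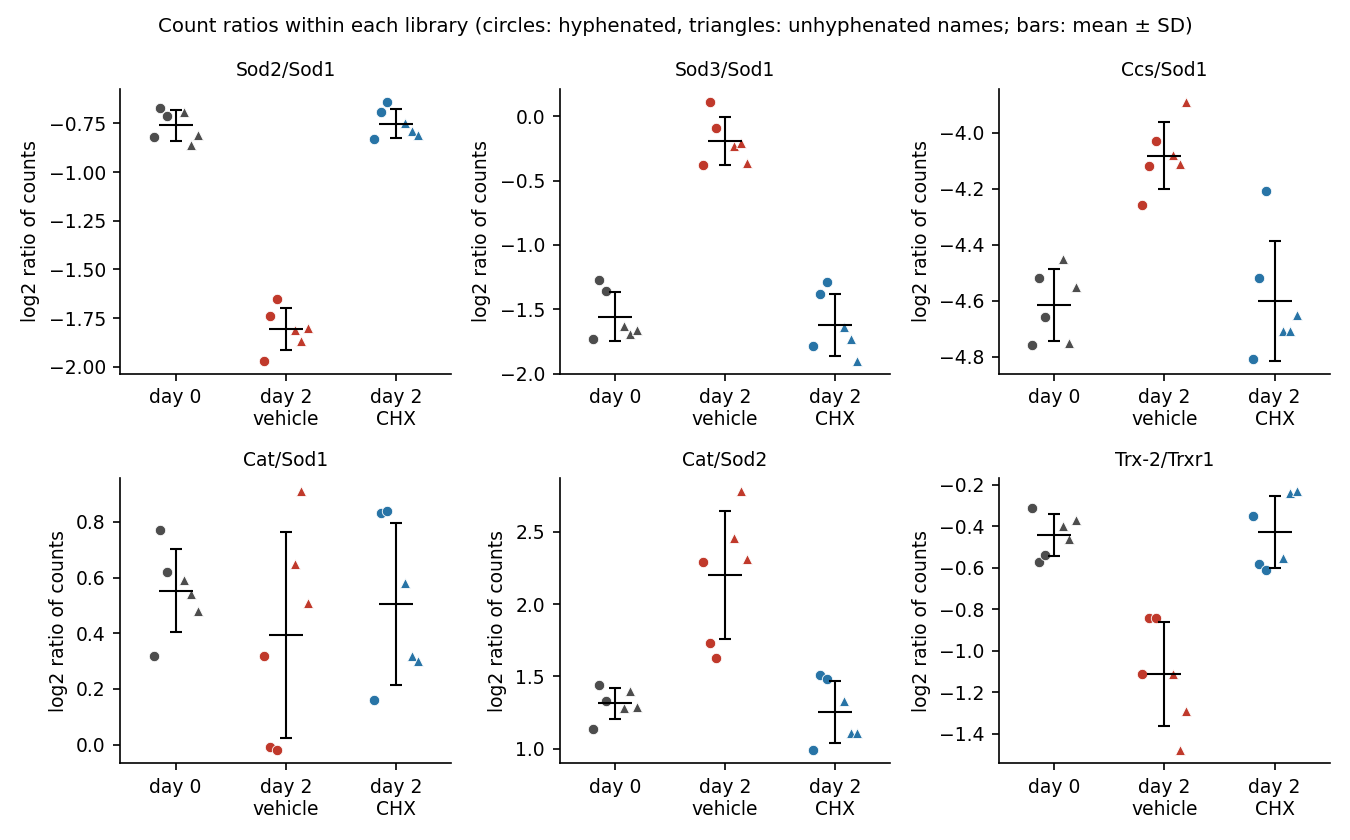
Log2 of the ratio of counts of a pair of members within each library, for 6 pairs, by group. Circles are libraries with hyphenated and triangles with unhyphenated names, and lines are the mean ± SD of 6 libraries. The Sod2/Sod1, Sod3/Sod1, Cat/Sod2 and Trx-2/Trxr1 values of vehicle libraries lie apart from both other groups, Cat/Sod1 values overlap throughout, and Ccs/Sod1 values of vehicle and CHX flies overlap by 1 CHX library.

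Library scaling decided the direction of 4 members. With library sizes alone in place of TMM, the median feature shifted by 0.49 for vehicle against day 0 and by -0.53 for CHX against vehicle, and with the mitochondrial genome left out of library sizes by 0.29 and -0.31. With RpL32 (Rp49, a ribosomal protein gene and the reference of the qRT-PCR in the study) as the reference the shifts were -0.33 and 0.27. RpL32 itself rose in vehicle flies under TMM, at 0.32 (SE 0.13, edgeR adjusted p = 0.0276), a call that was lost without day 0 replicate 2, 3 or 5 or vehicle replicate 2 or 3 (adjusted p between 0.0509 and 0.0673). The balance of calls over all features moved with it: for vehicle against day 0, TMM gave 4616 higher and 4546 lower, library sizes 5893 and 3384, library sizes without the mitochondrial genome 5443 and 3842, and RpL32 3174 and 5140. For CHX against vehicle the same 4 scalings gave 4644 and 4568, 3363 and 5977, 3838 and 5490, and 4967 and 3457.

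Sod2 fell in vehicle flies under all 6 scalings, by 0.83 to 1.65 on the log2 scale, and Sod3 rose by 0.75 to 1.58 and Trxr1 by 0.38 to 1.19, each called every time. For CHX against vehicle Sod2 was higher by 0.89 to 1.68, Sod3 was at -0.81 to -1.60 and Trxr1 at -0.44 to -1.23, again called every time. Sod1 and Cat did not keep their direction. For vehicle against day 0 Sod1 was at -0.60 with RpL32, 0.02 without the mitochondrial genome and 0.21 with library sizes, and Cat was at -0.74, -0.13 and 0.07. For CHX against vehicle, library sizes gave -0.16 for Sod1 and -0.07 for Cat. Trx-2 rose in vehicle flies with library sizes (0.51) and fell with RpL32 (-0.30). Ccs went from 0.74 with library sizes to -0.07 with RpL32. Against the median feature of the same scaling, Sod1 and Cat were lower and Ccs was higher in vehicle flies under all 6 scalings. Trx-2 stayed close to that median. A scaling moves all genes by nearly the same amount, so the 6 offsets of a gene repeat 1 result. A direction of these 4 genes in the whole RNA of a fly can therefore not be given apart from the scaling.

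**Figure D4:**
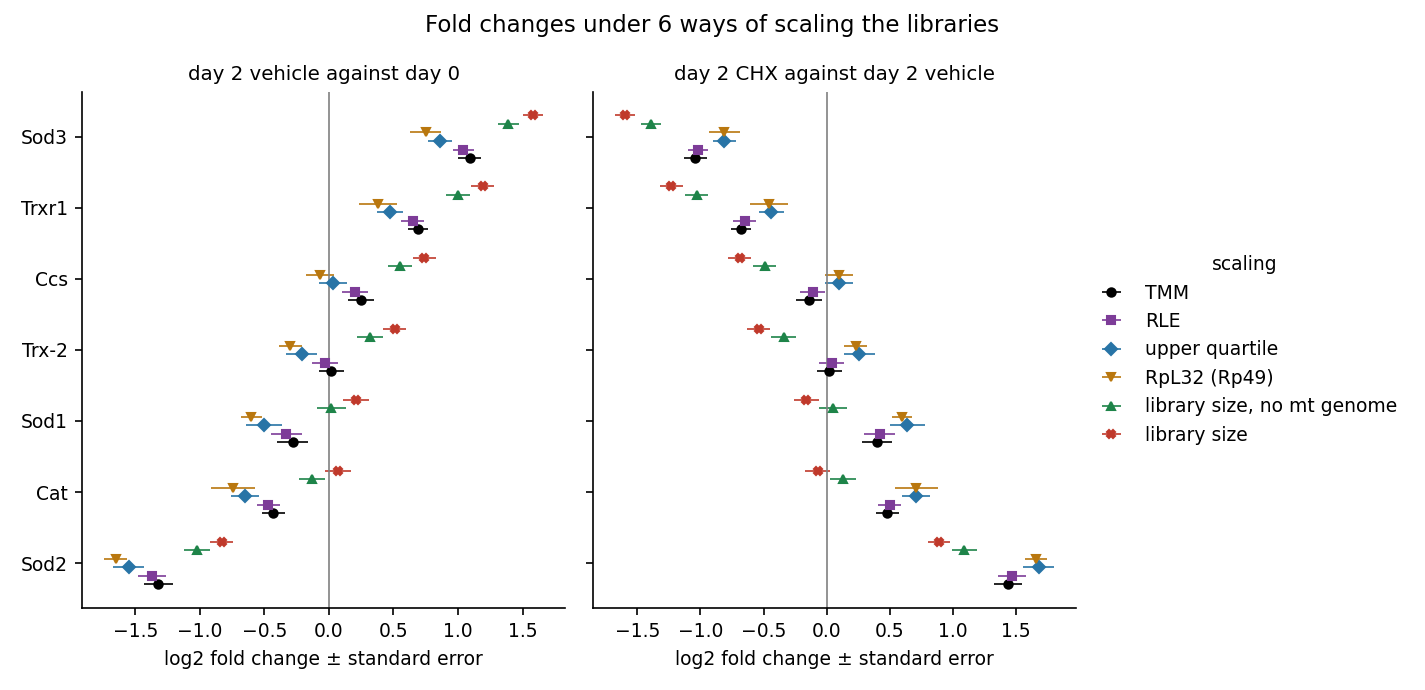
Log2 fold changes ± SE of the 7 members tested under 6 ways of scaling the libraries, for vehicle against day 0 (left) and CHX against vehicle (right). Sod3 and Trxr1 stay on 1 side of 0 and Sod2 on the other under all 6 scalings, while Sod1, Cat, Ccs and Trx-2 cross it under at least 1 scaling in each comparison.

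Some vehicle levels differed between the name series, without a test of the levels. Among vehicle libraries, Sod3 was 294 ± 31 CPM in the 3 hyphenated and 234 ± 16.3 in the 3 unhyphenated libraries, Trxr1 410 ± 15.8 and 537 ± 57.2, and Cat 346 ± 71.4 and 455 ± 30.4. The hyphenated Trxr1 values lay wholly below the unhyphenated ones and the Sod3 values wholly above. Sod2 (87.9 to 99.6 against 69.6 to 85.1 CPM) and Sod1 (303 to 344 against 254 to 297 CPM) were also wholly higher in the hyphenated vehicle libraries. Values of Cat, Ccs and Trx-2 overlapped. With 3 against 3 libraries such separation is easily met, and its share over all features was not computed. Within each series the directions of Sod2, Sod3, Trxr1 and Cat held. For vehicle against day 0, Sod2 was at -1.19 and -1.47 in the hyphenated and unhyphenated series, Sod3 at 1.20 and 0.96, Trxr1 at 0.53 and 0.85, and Cat at -0.59 and -0.28. Sod1 was at -0.14 and -0.43. The difference between series was called for no member in any comparison by the interaction test of edgeR (lowest adjusted p = 0.236, for Sod3 in CHX against vehicle). Of all features this test called 3.41% for vehicle against day 0, 3.57% for CHX against vehicle and 0% for CHX against day 0. The Cat/Sod1 ratio had opposite signs in the series, at -0.48 and 0.16 for vehicle against day 0, and this difference was not tested.

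Across the 18 libraries the members did not form 1 group. Pearson's r of log2 CPM, given as a description since the libraries fall into vehicle and non-vehicle clusters, was -0.891 between Sod2 and Sod3, -0.868 between Sod2 and Trxr1, 0.829 between Sod3 and Trxr1 and 0.781 between Sod1 and Sod2. Trx-2 had its highest r with Sod1, at 0.653. Among 7490 genes with at least 10 CPM, the profiles most like Sod1 were Apt1 (0.962), Npc2a (0.954) and CG11722 (0.953). Those most like Cat were CG15247 (0.949), CG15211 (0.948) and Diap1 (0.946), and those most like Trxr1 were Alr (0.982), Ist1 (0.98) and kraken (0.975).

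Counts of the related lists are to be read against the shares over all features given above, 41.8% higher and 41.1% lower for vehicle against day 0 and 42.0% and 41.3% for CHX against vehicle, and most of them moved with the scaling. Peroxiredoxins take electrons from thioredoxin to reduce peroxides. Of the 8 of 10 peroxiredoxin and glutathione peroxidase-like genes that were tested, 3 rose and 4 fell against day 0, with a median log2 fold change of -0.27, and with CHX against vehicle 4 were higher and 3 lower (median 0.36). For vehicle against day 0 the 4 lower became 1 with library sizes, and the 3 higher became 1 with RpL32 as the reference. Prx2, a cytosolic peroxiredoxin and the most abundant of the list, was at 445 ± 43.3 CPM at day 0, 635 ± 74.1 with vehicle and 487 ± 96.6 with CHX, at 0.51 and -0.40, and with RpL32 as the reference neither change passed (0.18 and -0.18). Prx6a was at 0.57 and -0.58. CG12896, of a cluster of near-identical genes with Prx6b and Prx6c whose reads are hard to assign, was at -1.74 (SE 0.56) and 1.90 (SE 0.56). Without vehicle replicate 6 it was at -2.63 and 2.80, and in the unhyphenated series alone neither change passed (-0.53 and 0.77). Prx5 had 0 counts in all 18 libraries. All of its exon bases are shared with CG7215 on the same strand, the part of which was not tested, so no level was read from it.

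Among the other thioredoxins, dhd, the thioredoxin of the female germline, had the largest change. It was at 124 ± 48.9 CPM at day 0 (74, 111 and 210), 1620 ± 350 with vehicle (1170, 1670 and 2070) and 78.5 ± 35.8 with CHX (42.9, 69.1 and 146). It was 13.7-fold higher in vehicle than in day 0 flies (log2 3.77, SE 0.27, edgeR adjusted p = 2.86e-10) and 21.6-fold lower with CHX than with vehicle (-4.43, SE 0.28, adjusted p = 4.06e-11). Of the 4 tested genes of this list 1 rose and 2 fell in vehicle flies (2 and 0 with library sizes), with CG8993 the lowest at -0.66, and the germline and ovary markers given above moved with dhd, whose part was not tested. TrxT, the testis thioredoxin, had at most 0.393 CPM in 17 libraries and 2.98 in day 0 replicate 1, and its change was not tested. That library also had the highest betaTub85D (4.69 CPM), Mst98Ca (2.9) and dj (1.67), picked from their list after their values were seen. SP and Acp95EF of the same list had no counts in any library. What the shared peak reflects was not tested.

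In the list for the supply of NADPH, the electron donor of thioredoxin reductase, 5 of 6 genes were lower and 1 higher in vehicle flies, with a median of -0.98, and with CHX against vehicle 5 were higher and 1 lower (median 1.07). Men-b, a malic enzyme, was at 482 ± 102, 112 ± 9.68 and 510 ± 89.4 CPM, and Idh, the NADP-dependent isocitrate dehydrogenase, at 730 ± 132, 435 ± 28.1 and 745 ± 128 CPM. Nmdmc, a dehydrogenase of folate metabolism named for its use of NAD and so a doubtful member of the list, was the gene called against the others, at 0.88 (SE 0.38), with vehicle libraries from 21.1 to 157 CPM, but it was lower in the hyphenated series alone (-0.53, adjusted p = 0.0037), and the call was lost in 12 of 18 fits with 1 library left out, namely any CHX library or replicate 4, 5 or 6 of day 0 or vehicle flies (adjusted p between 0.0545 and 0.113). Its call for CHX against vehicle (-0.86) was lost in 14 of the 18 (adjusted p between 0.0518 and 0.114). For glutathione synthesis and glutaredoxins 2 rose (Gclc at 0.58 and Gclm at 0.52, the subunits of glutamate-cysteine ligase) and 2 fell (Grx1 lowest at -0.69) of 4 tested, with medians of -0.05 and, for CHX against vehicle, 0.15. With RpL32 as the reference Gclc (0.28) and Gclm (0.21) did not pass, and with library sizes Grx1 (-0.20) did not. SelR, a methionine sulfoxide reductase, fell by 1.31 while MsrA was at 0.12 and did not pass, so 1 of 2 was lower (medians -0.60 and 0.63). Of 5 regulators 3 rose and 2 fell (median 0.22, and -0.09 for CHX against vehicle, with 2 higher and 2 lower). The 3 rises became 0 with upper quartile factors and with RpL32, and for CHX against vehicle the 2 lower became 0 with both and 4 with library sizes. The rises of cnc, the fly Nrf2, and of its inhibitor Keap1 were small, at 0.29 and 0.33, and with RpL32 as the reference they were at -0.04 and 0.00. Sesn was at -2.47, from a level of 0.92 CPM at day 0 and with 67.4% of its exon bases shared with other genes. For CHX against day 0 no gene of these 6 lists was called.

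**Figure D5:**
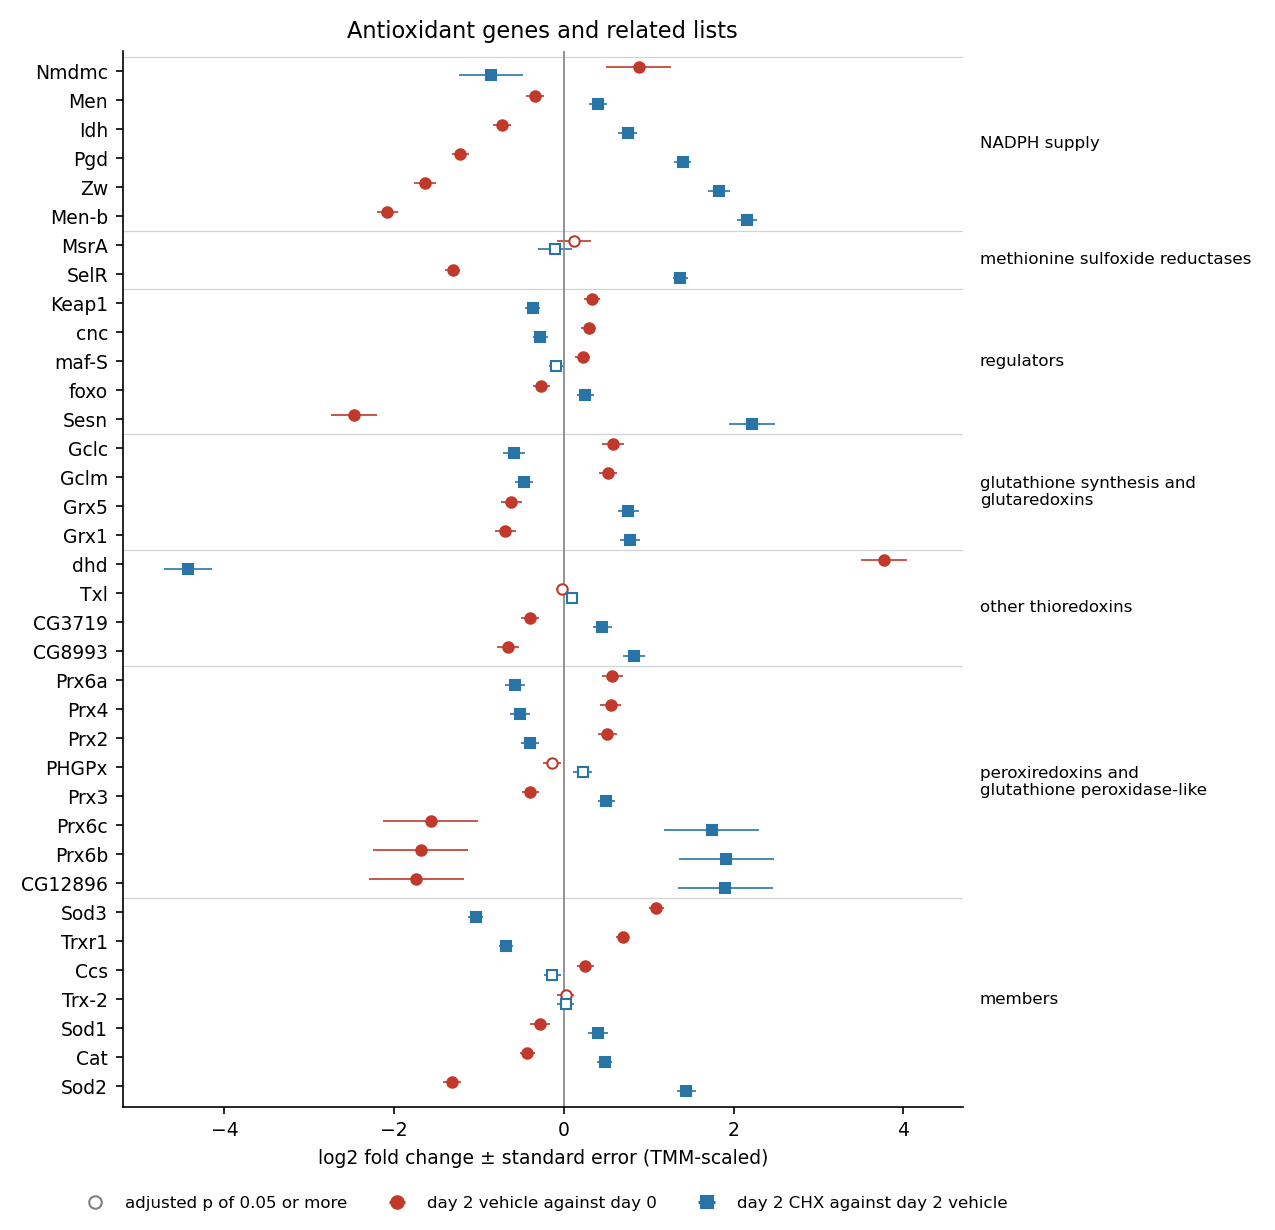
Log2 fold change ± SE (TMM-scaled) of the members and of the tested genes of 6 related lists, for vehicle against day 0 (red circles) and CHX against vehicle (blue squares), with open symbols at an adjusted p of 0.05 or more. Each list holds genes on both sides of 0, dhd lies furthest out (3.77 and -4.43), and the comparisons mirror each other since both use the vehicle libraries.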

How the data were processed

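Whole-fly RNA of 18 libraries was analyzed. The table deposited by the authors holds raw counts per feature, 1 column per library, and 0 sample columns were left unused. Per the submitters' processing notes the tools were bcl2fastq 2.18.0.12, STAR 2.7.10a and HTSeq 0.12.3, with build BDGP6. The sources used here do not give settings, annotation or strandedness. Rows that name no feature (8.46% to 11.6% of a column) entered neither library sizes nor tests. Genes were matched by FlyBase identifier to the Ensembl BDGP6 annotation. The members and lists were chosen with earlier results of these data known.

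Counts were tested in R 4.3.3 with edgeR 4.0.16: filterByExpr (minimum count 10), TMM factors and robust quasi-likelihood fits of the 18 libraries together, with the name series as a term. Of 23932 features, 11051 were tested. CPM and ratios were computed from these counts, the latter compared by exact permutation in SciPy 1.17.1. Alternatives were RLE and upper quartile factors, library sizes with and without the mitochondrial genome, RpL32 as reference, no filter, at least 10 counts in every library, DESeq2 1.42.0, limma-voom (3.58.1), only the groups compared, no series term, each series alone, a replicate block, removal of the 20 most abundant genes, and leaving out each library. The fit was also run on simulated counts with few changed genes, unlike these data, so that run does not bear on the choice of scaling.

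The genes named are the 8 members, and from each related list the most abundant gene, those with the highest and lowest fold change in vehicle flies against day 0, and dhd, TrxT and RpL32. Prx6b, Prx6c, Prx5, CG7215 and sni are named because of shared reads, and markers of the male tract and testis to describe that list, all chosen after their values were seen. A Trxr2/Trxr1 ratio was planned but not computed, since Trxr2 had 0 counts in most libraries, and no promoter motif was searched. Figures were drawn with matplotlib 3.10.9.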

Additional observations from a re-analysis of the deposited data

Results flagged for a closer look

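The highest or lowest library was compared with the others by Dixon's criterion in 99 sets of 6 libraries. A set was the level of a named gene, or the count ratio of a pair of members, in 1 group. The ratios reuse the counts of the members, so the sets are not independent. Chance alone meets the criterion in about 1 of 20 sets, and 4 sets met it, all of gene levels. Cat in day 0 replicate 4 was at 594 CPM, with the other 5 day 0 libraries between 512 and 532. CG12896 in vehicle replicate 6 was at 42.8 CPM, with the others between 3.87 and 10.7, and it rose together with its near-identical neighbors Prx6b (47.7 CPM) and Prx6c (109 CPM) in that library. TrxT in day 0 replicate 1 was at 2.98 CPM, with the others at 0.351 or less. Trxr2 was at 0.065 CPM in the only day 0 library with a count, which rests on 2 reads.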

How the results depend on the processing

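Scaling by library sizes, or by library sizes without the mitochondrial genome, left 1 member called lower in vehicle flies against day 0 in place of 3, and for CHX against vehicle 1 higher in place of 3 and 4 lower in place of 2. Directions turned with library sizes alone for Sod1 (0.21) and Cat (0.07) in vehicle flies against day 0, and for Sod1 (-0.16), Cat (-0.07) and Trx-2 (-0.54) in CHX against vehicle. Without the mitochondrial genome they turned for Sod1 (0.02) and, in CHX against vehicle, Trx-2 (-0.34), and with RpL32 for Ccs (-0.07) and Trx-2 (-0.30) in vehicle flies against day 0. With RpL32, cnc was at -0.04 for vehicle against day 0. These turns follow from the shift of the median feature that each scaling makes. Of the other settings, the Sod1 call in vehicle flies against day 0 was lost without a filter (adjusted p = 0.0939) and in the hyphenated series alone (0.521), and that of Ccs with RLE (0.0584), upper quartile factors (0.834), DESeq2 (0.0546), at least 10 counts in every library (0.136), the 2 groups alone (0.136) and the unhyphenated series alone (0.459), all from edgeR except DESeq2. The Sod1 call in CHX against vehicle was lost in the hyphenated series (0.17, adjusted p = 0.422). Nmdmc reversed in the hyphenated series, at -0.53 for vehicle against day 0 and 0.41 for CHX against vehicle. The cause was not tested.

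Within-library ratios by name series (hyphenated, then unhyphenated, values only) were, for Cat/Sod1, -0.48 and 0.16 for vehicle against day 0 and 0.51 and -0.29 for CHX against vehicle. For Cat/Sod2 they were -0.56 and -1.34 for CHX against vehicle, and for Trx-2/Trxr1 -0.45 and -0.89 for vehicle against day 0 and 0.42 and 0.96 for CHX against vehicle. The cause was not tested. With a library left out, Sod1 stayed between -0.33 and -0.22 and Ccs between 0.22 and 0.31 for vehicle against day 0, and none of the 324 ratio values changed direction past the threshold or its side of it.

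With the replicate number as a block, 3 members were higher and 3 lower in vehicle flies against day 0, and no member's call changed in any comparison (Sod2 at -1.32, Sod3 at 1.09), while of the other genes named Nmdmc lost its call (0.84, edgeR adjusted p = 0.081). Not every same-numbered pair of libraries deviated together: r was above 0.1 in 5 of 6 pairs of day 0 with CHX (-0.114 to 0.545), 1 of 6 of day 0 with vehicle and 0 of 6 of CHX with vehicle libraries, and 3 of 18 libraries correlated best with their own number. With 2, 8 and 2 counts summed over the day 0, vehicle and CHX libraries, Trxr2 could not be compared.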
